A study of Homo sapiens with 8 samples.

Results

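The genes described here encode subunits of the chromatin remodelling complexes that carry actin or actin-related proteins. They comprise 43 of the 20037 protein-coding genes of the RefSeq table, chosen by name: 30 genes of the SWI/SNF complexes and 13 further genes of the INO80, SRCAP and TIP60 complexes, with the actin gene itself left out. For each gene, every peak that overlapped its annotated span on hg38 or the 2 kb on either side was taken from 8 peak lists.

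Remodellers of this kind use ATP to slide, evict or exchange nucleosomes, and a module of actin and actin-related proteins couples to the ATPase in each of them. SWI/SNF complexes open promoters and enhancers and exist as canonical BAF, polybromo BAF (PBAF) and non-canonical BAF, which share a core and differ in a few defining subunits. INO80 moves nucleosomes and acts at promoters and at sites of replication and repair. SRCAP and TIP60 place the histone variant H2A.Z into nucleosomes, and TIP60 also acetylates histones.

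The libraries were made by CUT&RUN, in which a nuclease is tethered to chromatin by an antibody and the fragments it cuts loose are sequenced. The cells were HCT-116, a human colorectal carcinoma line. An antibody against BRG1, the SWI/SNF ATPase encoded by SMARCA4, was used on SETD3 KO cells, which lack the histidine methyltransferase of actin, in libraries named KO1 and KO2, and on SETD3 control cells in 1 library. Flag-tagged actin was profiled in the same way in 2 KO libraries and 1 control library, and 2 IgG libraries of control cells, a Flag_Empty IgG and a plain IgG, served as background. No label tells if KO1 and KO2 were different clones or different cultures, or if the cells of the Flag_Empty IgG library carried the tagged actin. With 2 KO libraries against 1 control library per antibody, no permutation test can go below a two-sided p of 1 in 3, so the comparisons below give counts, with 95% Wilson intervals that cover counting error only, and no test.

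The lists set the scale of every count. The BRG1 lists held 23784 peaks in KO1 and 32038 in KO2, against 53270 in control cells, and the Flag-actin lists held 27249 and 35892 in KO1 and KO2, against 38902 in control cells. The share of BRG1 peaks that overlapped a peak of either IgG list by at least 1 bp was 71.4% for KO1 and 60.1% for KO2, against 36.9% for the control. In the Flag-actin arm it was 55.5% for KO1 and 48.5% for KO2, against 34.5% for the control. Peaks that overlap neither IgG list are called IgG-free here. The sources used here do not give the authors' scaling of the signal, so a peak's strength is given only as its percentile, the share of peaks in its own list whose total signal was no higher. All lists are compared as the authors called them, and the library's depth, its threshold and the cells' genotype cannot be told apart as sources of a difference in peak number.

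Where an IgG-free BRG1 peak covered at least 100 of the 250 bases upstream of an annotated start site, outside the gene's span, the covered bases are shown, because these are the stretches at which BRG1 signal met a member's own promoter. The sequences are those of RefSeq on GRCh38.p14, written 5′ to 3′ on the gene's strand. Capitals mark matches on either strand to a GC box (GGGCGG), the CCAAT box (CCAAT) or the core of an ETS site (CCGGAAG), and no capitals overlap between motifs. The first 5 stretches lay in peaks of the BRG1 control, and the SRCAP stretch lay in a peak of BRG1 KO2.
ACTR5 promoter, chr20:38748210-38748459, + strand: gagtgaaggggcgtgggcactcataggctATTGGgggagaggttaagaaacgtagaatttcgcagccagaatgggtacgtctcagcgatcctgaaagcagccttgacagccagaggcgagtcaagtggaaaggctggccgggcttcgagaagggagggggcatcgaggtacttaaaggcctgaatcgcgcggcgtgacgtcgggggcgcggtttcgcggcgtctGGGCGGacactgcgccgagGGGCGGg
ACTR6 promoter, chr12:100200621-100200814, + strand: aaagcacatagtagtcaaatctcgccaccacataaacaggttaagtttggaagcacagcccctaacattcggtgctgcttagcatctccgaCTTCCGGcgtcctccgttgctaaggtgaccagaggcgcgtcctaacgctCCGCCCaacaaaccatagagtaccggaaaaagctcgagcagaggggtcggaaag
DPF1 promoter, chr19:38229741-38229945, - strand: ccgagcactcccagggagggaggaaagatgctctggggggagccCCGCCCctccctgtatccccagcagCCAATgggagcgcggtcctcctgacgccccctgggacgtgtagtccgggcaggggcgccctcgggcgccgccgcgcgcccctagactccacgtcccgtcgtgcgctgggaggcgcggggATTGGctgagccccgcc
DPF2 promoter, chr11:65333711-65333851, + strand: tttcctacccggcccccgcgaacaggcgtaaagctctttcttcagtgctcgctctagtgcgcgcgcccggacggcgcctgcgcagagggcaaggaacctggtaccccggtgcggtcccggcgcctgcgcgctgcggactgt
DPF3 promoter, chr14:72894102-72894351, - strand: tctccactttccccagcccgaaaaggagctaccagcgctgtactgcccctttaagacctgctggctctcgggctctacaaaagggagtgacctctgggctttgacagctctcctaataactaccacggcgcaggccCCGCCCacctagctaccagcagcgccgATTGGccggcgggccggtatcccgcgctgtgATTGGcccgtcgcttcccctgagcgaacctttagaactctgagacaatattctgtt
SRCAP promoter, chr16:30698991-30699170, + strand: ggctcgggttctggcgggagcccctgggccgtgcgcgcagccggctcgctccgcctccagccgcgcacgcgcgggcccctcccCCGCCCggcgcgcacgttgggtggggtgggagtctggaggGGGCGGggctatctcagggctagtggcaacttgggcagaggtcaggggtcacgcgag
The DPF3 stretch was the only one of these held by more than 1 BRG1 list: the KO2 peak covered positions -219 to -20 relative to the start site, inside the 250 bases covered by the control peak. The SRCAP stretch ran over the last 180 bases before the start site. GC content was 76.7% in the SRCAP stretch, 74.6% in DPF1, 69.5% in DPF2, 62.4% in ACTR5, 59.2% in DPF3 and 53.1% in ACTR6. Motifs were searched in the 250 bases before each listed start site. A GC box was found before at least 1 start site of 29 of the 37 members with an entry (78.4%), against 62.1% of all 15843 genes with one. The CCAAT box was found for 16 members (43.2%, against 40.2% of all genes) and the ETS core for 6 (16.2%, against 14%). The AP-1 motif TGANTCA was found for 1 member, SMARCB1 (2.70%, against 7.09%). These matches are letters in a window, not shown to be bound.

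BRG1 peaks were listed at fewer of the 43 genes in both KO libraries than in the control. A peak of any kind lay at 21 members in KO1 (48.8%, interval 34.6 to 63.2) and at 22 in KO2 (51.2%, 36.8 to 65.4), against 34 in control cells (79.1%, 64.8 to 88.6). Over all protein-coding genes the shares were 34.9% in KO1 and 44.6% in KO2, against 61.9% in control cells. With IgG-free peaks alone the counts were 9 members in KO1 and 17 in KO2, against 31 in control cells, where all genes stood at 15.7%, 28.3% and 52.4%. The members' shares of 20.9%, 39.5% and 72.1% were above those of all genes in each of the 3 libraries. The intervals were 11.4 to 35.2 in KO1, 26.4 to 54.4 in KO2 and 57.3 to 83.3 in the control. They count genes within 1 library, which are not replicates, so the members were not tested against all genes. In addition, the members had a median annotated length of 42.2 kb, against 24.1 kb over all genes. The number of IgG-free BRG1 peaks was 10 in KO1 and 21 in KO2, against 85 in control cells.

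IgG peaks were also listed at these genes, as at many others. The Flag_Empty IgG list had a peak at 17 members (39.5%, interval 26.4 to 54.4) and the plain IgG list at 20 (46.5%, 32.5 to 61.1), against 31.4% and 33.2% of all genes. Of the BRG1 peaks at members, 69.7% overlapped an IgG peak in KO1 and 54.3% in KO2, against 22% in control cells. Those peaks were narrow, with a median width of 30 bp in KO1 and 40 bp in KO2, against 50 bp in the control, while the IgG-free peaks had medians of 95 and 130 bp in KO1 and KO2, against 220 bp in the control. At 9 members, 12 sites of 20 to 110 bp were held by all 8 lists. They included the strongest peak at any member in the BRG1 control, a 30-bp peak at SMARCC2 at percentile 99.1 (chr12:56163181-56163210), where MYL6 also lies within 2 kb.

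**Figure D1:**
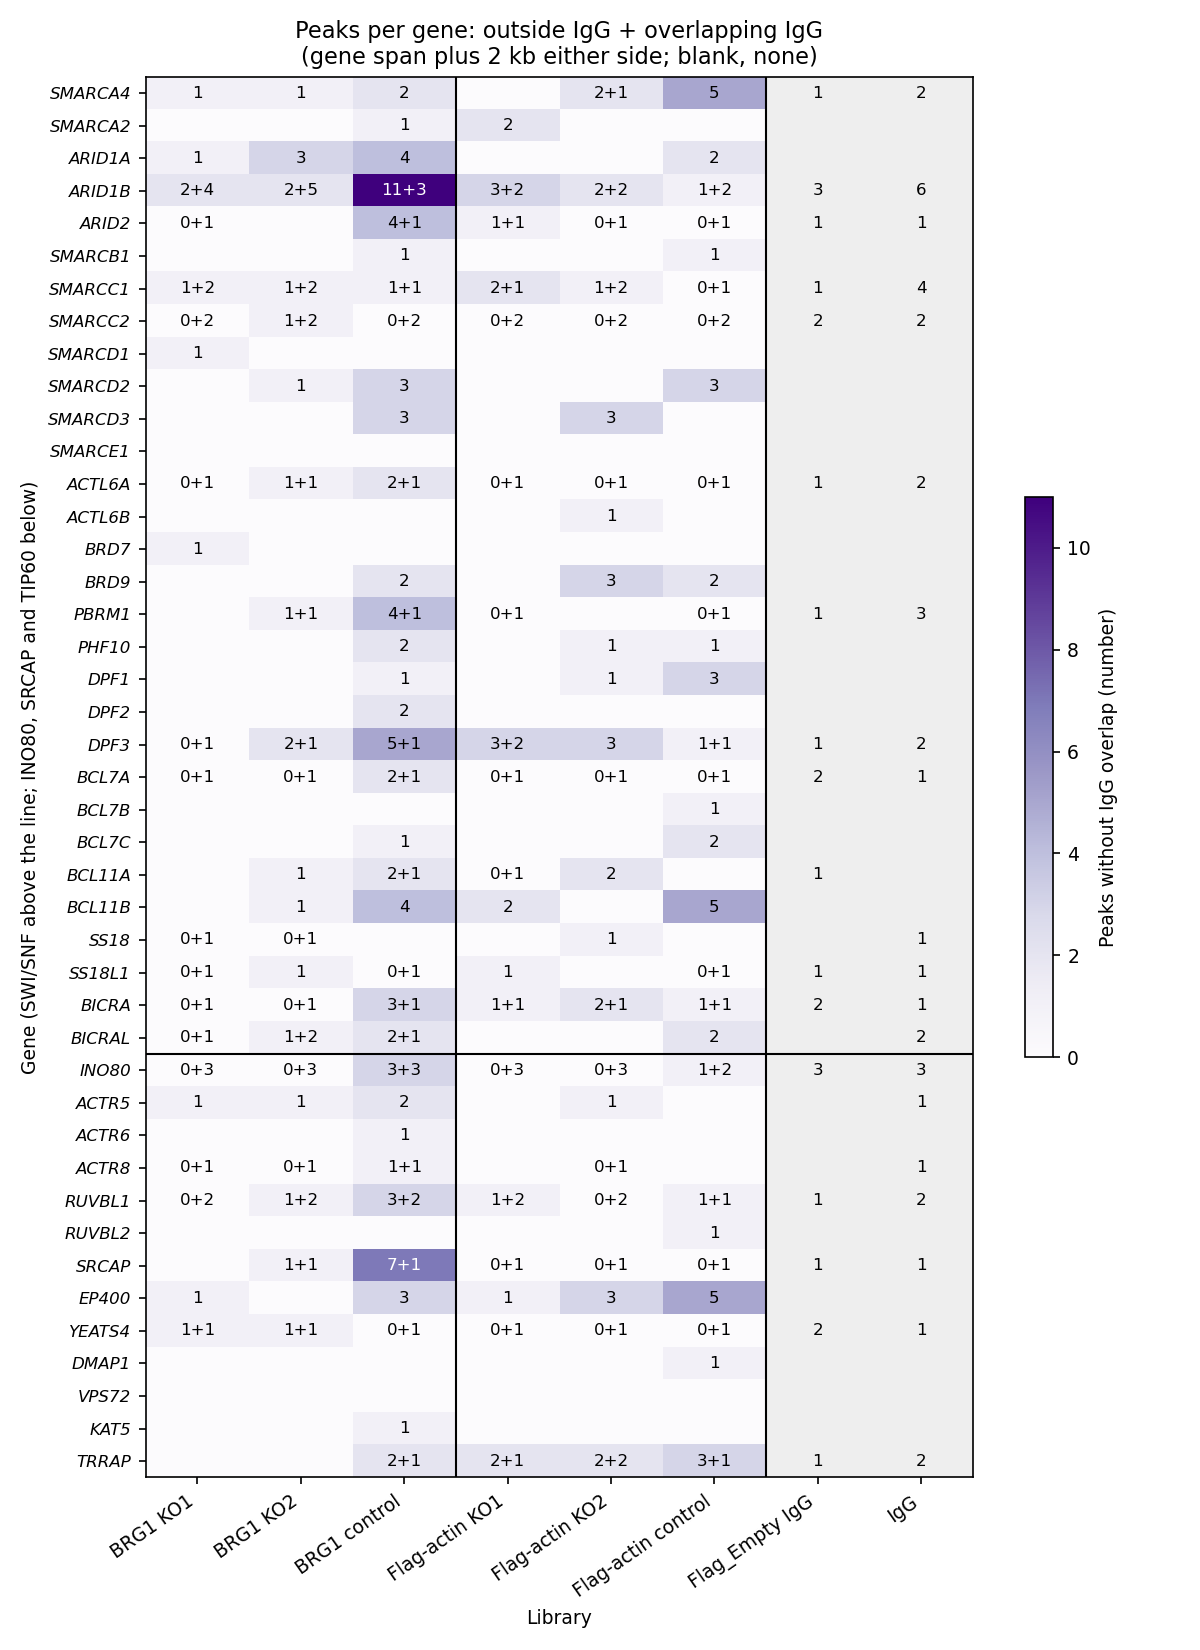
Number of peaks at each of the 43 genes (vertical axis) in each of the 8 libraries (horizontal axis), written as peaks without IgG overlap plus peaks with it, and shaded by the number without it. The BRG1 control column is the darkest, with 85 IgG-free peaks, against 10 in BRG1 KO1 and 21 in BRG1 KO2.

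In the BRG1 arm 16 members had no IgG-free peak in either KO library and at least 1 in the control (37.2%), against 25.1% of all genes, and only YEATS4 had one in both KO libraries and not in the control (2.33%, against 0.744%). Only genes with a control peak can be in the first group, and members had one more often (72.1%, against 52.4%). Of the 31 members with an IgG-free control peak 16 had none in either KO library, as did 5027 of the 10502 genes with one. Counting peaks of any kind, 11 members were in the control list alone (25.6%, against 18.5%), and 1, SS18, was in both KO lists but not the control (2.33%, against 0.858%), at peaks that overlap IgG. IgG-free peaks were fewer in both KO libraries than in the control at 30 of the 43 members, against 40.1% of all genes, and more in both at YEATS4 alone, against 0.888% of all genes. The whole IgG-free BRG1 list was also shorter in both KO libraries, with 6792 peaks in KO1 and 12795 in KO2, against 33618 for the control. Against KO2 alone 17 members with an IgG-free control peak had none (29.2% of all genes did), and against KO1 alone 25 had none (39.1% of all genes). Of the 10502 genes with an IgG-free control peak, 5856 had none in KO2 and 7840 had none in KO1.

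The members' counts were closer together when the lists were made equally long. With each list reduced to its 6792 strongest IgG-free peaks, the length of the shortest BRG1 list, BRG1 peaks lay at 9 members in KO1 and 12 in KO2, against 15 in control cells. All genes then stood at 15.7% in KO1 and 17.9% in KO2, against 18.4% in control cells. The number of peaks was 10 in KO1 and 13 in KO2, against 20 in control cells.

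At the level of single sites, few control peaks were found again. Of the 85 IgG-free BRG1 control peaks at members, 1 overlapped a KO1 peak (1.18%, against 7.16% of such peaks at all places) and 6 overlapped a KO2 peak (7.06%, against 13.7%), and none overlapped both. The control peak found in KO1 had percentile 76.1, and the 6 found in KO2 a median of 76.2, against medians of 34.1 and 32.6 for the others. Control peaks that overlapped IgG were found again far more often, 19 of 24 in KO1 and 19 of 24 in KO2 (79.2% each, against 76.0% and 84.5% of all such peaks). KO1 and KO2 shared 1 IgG-free site, in ACTR5 at chr20:38758791-38758820 in KO1, which is 1 of 10 KO1 peaks and 1 of 21 KO2 peaks. Over the whole lists, at genes or not, 26.6% of IgG-free KO1 peaks overlapped a KO2 peak and 14.2% of IgG-free KO2 peaks overlapped a KO1 peak.

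**Figure D2:**
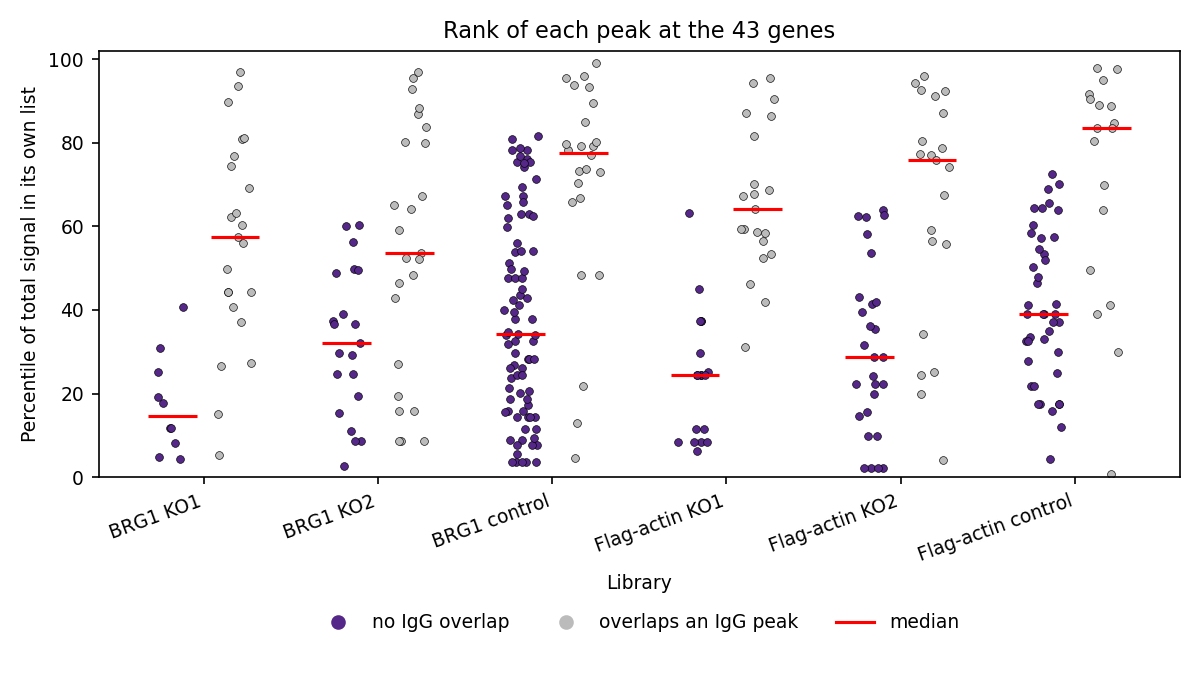
Percentile of total signal within its own list (vertical axis, 0 to 100) of every peak at the 43 genes in the 6 antibody libraries (horizontal axis), with IgG-free peaks in purple, IgG-overlapping peaks in grey and medians in red. The IgG-free medians were 14.7 and 32.2 in BRG1 KO1 and KO2, against 34.2 in the BRG1 control, and each lies under the grey median of its library.

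Percentiles describe a peak's place in its own list, and lists that differ in length and in IgG content give ranks that cannot show a change between libraries. The 10 IgG-free BRG1 peaks at members in KO1 had a median percentile of 14.7 and none was above 40.8. In KO2 the median was 32.2 and the highest 60.4, against 34.2 and 81.7 in the control. Over all IgG-free peaks of each list the medians were 20.7 in KO1 and 27.1 in KO2, against 36.5 in control cells. Peaks at members that overlapped IgG had medians of 57.5 in KO1 and 53.7 in KO2, against 77.6 in control cells. The highest ranking peak at any member overlapped IgG in each BRG1 list, at percentile 96.9 in KO1 and 96.9 in KO2, against 99.1 in control cells.

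BRG1 peaks at start sites were found mainly in the control. An IgG-free BRG1 peak lay within 1 kb of a start site of 3 of the 37 members with an entry in KO1 (SMARCD1, BRD7 and YEATS4) and of 4 in KO2 (SMARCD2, DPF3, BICRAL and SRCAP), against 17 in control cells. All genes with an entry stood at 4.29% in KO1 and 12.8% in KO2, against 31.9% in control cells. The 4 of KO2 were also among the 17 of the control, and the 3 of KO1 were not. The other 13 control members were ARID1A, ARID1B, SMARCB1, BRD9, PHF10, DPF1, DPF2, INO80, ACTR5, ACTR6, ACTR8, RUVBL1 and KAT5. No IgG peak lay within 1 kb of a member's start site in the Flag_Empty IgG list and 1 did, at BICRAL, in the plain IgG list.

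**Figure D3:**
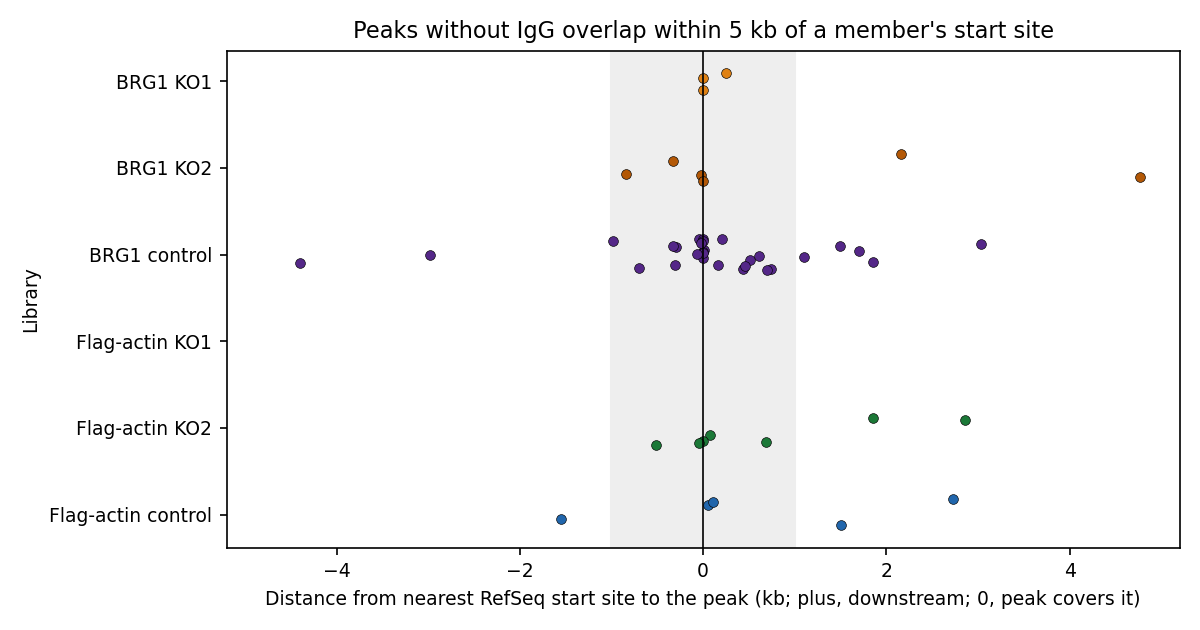
Distance in kb from the nearest annotated start site to each IgG-free peak within 5 kb of it (horizontal axis, positive downstream, 0 where the peak covers the site) for the 6 antibody libraries (vertical axis), with the 1-kb window shaded. The window holds 3 and 4 peaks in BRG1 KO1 and KO2, against 22 in the BRG1 control, and 0 and 5 in Flag-actin KO1 and KO2, against 2 in the Flag-actin control.

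The ATPases differed in how their BRG1 peaks were spread, and counts at single genes are of IgG-free peaks from here on unless stated. SRCAP, BCL7A, PBRM1, ACTR5, ARID1B, DPF3, ACTL6A, SMARCC1, KAT5 and SMARCD2 were chosen for their high ranking IgG-free BRG1 control peaks. That choice favours a lower KO value, so their KO values are given only as a description. SMARCA4 itself (chr19:10961030-11062273), which encodes the BRG1 protein the antibody recognises, had 1 peak in KO1 and 1 in KO2, against 2 in control cells. The plain IgG list had 2 peaks at this gene and the Flag_Empty IgG list 1. All its BRG1 peaks were IgG-free, at percentile 25.2 in KO1 and 8.62 in KO2, against 54.2 and 47.6 in the control. The 4 peaks lay at 4 different places inside the gene, between 38847 and 73007 bp from the nearest start site. SMARCA2, the alternative SWI/SNF ATPase, had none in KO1 or KO2, against 1 of 40 bp at percentile 26.9 in the control. INO80, the ATPase of the INO80 complex, had no IgG-free peak in KO1 or KO2, against 3 in control cells, and 3 IgG-overlapping peaks in each of the 3 libraries. SRCAP had none in KO1 and 1 in KO2, against 7 in control cells. The SRCAP peak at chr16:30741301-30741780 was the highest ranking IgG-free peak at any member in the control (percentile 81.7), at the far end of the gene, where TMEM265 also lies within 2 kb. EP400, the ATPase of TIP60, had 1 in KO1 at percentile 4.43 and none in KO2, against 3 in control cells that ranked between 3.68 and 15.6. Of the 5 ATPase genes 2 thus had an IgG-free BRG1 peak in KO1 and 2 in KO2, against all 5 in the control.

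Among the 7 genes grouped here as core SWI/SNF subunits, 2 had an IgG-free BRG1 peak in KO1 and 3 in KO2, against 4 in control cells. SMARCC1, a scaffold subunit, had 1 in each library, at 3 different places: percentile 19.2 in KO1 and 24.6 in KO2, against 75.4 in control cells. SMARCC2, its paralogue, had 1 in KO2 and none in KO1 or the control. SMARCB1, a subunit that contacts the nucleosome, had none in KO1 or KO2, against 1 in control cells at percentile 8.87. SMARCD1 had its only peak in KO1, SMARCD2 had none in KO1 and 1 in KO2, against 3 in control cells, and SMARCD3 had none in KO1 or KO2, against 3 in control cells. The KO2 peak of SMARCD2 lay on the strongest of its control peaks, at chr17:63843011-63843250 (percentile 29.2 in KO2, against 69.5 in control cells). SMARCE1, a DNA-binding subunit, had no peak in any of the 6 antibody libraries, and VPS72, a chaperone of H2A.Z in SRCAP and TIP60, was the only other member without one.

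Of the 5 subunits that define canonical BAF 2 had an IgG-free BRG1 peak in KO1 and 3 in KO2, against all 5 in the control. ARID1A, a large DNA-binding subunit, had 1 peak in KO1 and 3 in KO2, against 4 in control cells. None overlapped a control peak, although 1 KO2 peak began at the base after a control peak ended, near the start of the gene. Its paralogue ARID1B (chr6:156776026-157210779), the longest member, had 2 in KO1 and 2 in KO2, against 11 in control cells. For ARID1B 1 KO1 peak and both KO2 peaks overlapped a control peak, and those 3 control peaks ranked at percentiles 76.1, 67.2 and 78.2. Counting IgG-overlapping peaks as well, ARID1B had 6 in KO1 and 7 in KO2, against 14 in control cells. DPF1, DPF2 and DPF3 carry PHD fingers that read histone tails. DPF3 had none in KO1 and 2 in KO2, against 5 in control cells, with its strongest, at the promoter shown above, at percentile 36.7 in KO2 and 76.9 in control cells. By contrast, DPF1 and DPF2 had none in either KO library, against 1 and 2 in the control.

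**Figure D4:**
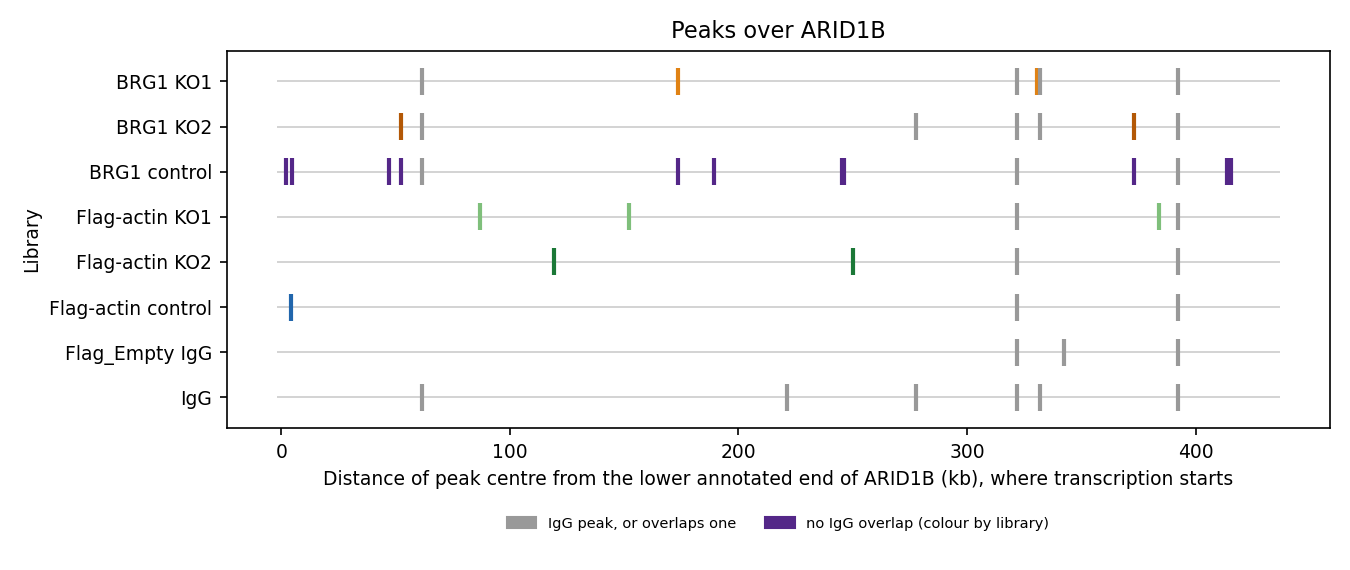
Position of each peak at ARID1B, as the distance in kb of the peak centre from the annotated end where transcription starts (horizontal axis), in the 8 libraries (vertical axis), with IgG peaks and peaks that overlap them in grey. Coloured, IgG-free marks number 2 and 2 in BRG1 KO1 and KO2, against 11 in the BRG1 control, and grey marks recur at the same places across libraries.

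The 4 PBAF subunits had an IgG-free BRG1 peak at 1 gene in KO1 (BRD7) and 1 in KO2 (PBRM1), against 3 in control cells (ARID2, PBRM1 and PHF10). PBRM1, which carries bromodomains that bind acetylated histones, had none in KO1 and 1 in KO2 at percentile 49.5, against 4 in control cells of which the KO2 peak overlapped the strongest, chr3:52606751-52606990, at percentile 78.8. ARID2 had none in KO1 or KO2, against 4 in control cells. Of the 3 non-canonical BAF genes none had an IgG-free BRG1 peak in KO1 and 1 did in KO2 (BICRAL), while all did in the control: BRD9 with 2 peaks, BICRA with 3 and BICRAL with 2. Of the 7 actin-related, BCL7 and SS18 subunits none had an IgG-free BRG1 peak in KO1 and 2 did in KO2, against 3 in control cells. ACTL6A, the actin-related subunit found in all 4 complexes, had none in KO1 and 1 in KO2 at percentile 56.3, against 2 in control cells, where the stronger had percentile 75.5 and overlapped the KO2 peak. BCL7A had none in KO1 or KO2, against 2 in control cells, of which the 830-bp peak at chr12:122063361-122064190, past the gene's annotated span, had percentile 80.8. BCL11A and BCL11B, zinc finger factors that join SWI/SNF, each had none in KO1 and 1 in KO2, against 2 and 4 in the control.

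As with SWI/SNF, fewer genes of the INO80, SRCAP and TIP60 complexes together had IgG-free BRG1 peaks in each KO library than in control cells. Of their 13 genes 3 had an IgG-free BRG1 peak in KO1 (23.1%, interval 8.18 to 50.3) and 4 in KO2 (30.8%, 12.7 to 57.6), against 9 in control cells (69.2%, 42.4 to 87.3). Of the 30 SWI/SNF genes 6 did in KO1 (20%, 9.51 to 37.3) and 13 in KO2 (43.3%, 27.4 to 60.8), against 22 in control cells (73.3%, 55.6 to 85.8). The SWI/SNF share of genes with a peak of any kind was 3.08 percentage points above that of the other complexes in the control. Its interval for counting error ran from -19.8 to 32.2, and the difference was not tested. By complex, with shared subunits counted in each, the counts were 1 in KO1 and 3 in KO2, against 5 in control cells, for the 6 INO80 genes. They were 1 and 4 in KO1 and KO2, against 4 in control cells, for the 8 SRCAP genes, and 2 and 3, against 5 in control cells, for the 9 TIP60 genes. The SRCAP count in KO2 was thus equal to that of the control.

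ACTR5, the actin-related subunit of INO80, was the only gene of these 13 with an IgG-free BRG1 peak in all 3 libraries. It had 1 in KO1 at percentile 30.8 and 1 in KO2 at percentile 60.0, against 2 in control cells at percentiles 71.2 and 78.3. The KO peaks lay on each other, 10331 bp into the gene, and on neither control peak, of which the lower ranking one covers the promoter shown above. ACTR6, the actin-related subunit of SRCAP, and ACTR8, of INO80, had none in KO1 or KO2, against 1 each in the control at percentiles 62.0 and 42.4, both within 1 kb of a start site. RUVBL1, an AAA+ ATPase of INO80, SRCAP and TIP60, had none in KO1 and 1 in KO2, against 3 in control cells, and its partner RUVBL2 had none in any of them. KAT5, the acetyltransferase of TIP60, had none in KO1 or KO2, against a 500-bp peak in the control at percentile 75.1 (chr11:65712411-65712910). TRRAP, a scaffold protein, had none in KO1 or KO2, against 2 in control cells. YEATS4, a reader of acylated histones, had 1 in KO1 on its start site at percentile 4.90 and 1 in KO2 4768 bp from it at percentile 15.3, against none in the control. DMAP1, a subunit of SRCAP and TIP60, had no BRG1 peak.

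Flag-tagged actin was listed at fewer of the 43 genes than BRG1 in control cells, and its KO and control counts lay closer together. A peak of any kind lay at 19 members in KO1 (44.2%, interval 30.4 to 58.9) and at 24 in KO2 (55.8%, 41.1 to 69.6), against 29 in control cells (67.4%, 52.5 to 79.5). All genes stood at 39.0% in KO1 and 47.4% in KO2, against 50.3% in control cells. IgG-free peaks lay at 11 members in KO1 and 15 in KO2, against 20 in control cells, where all genes stood at 23.8%, 33.4% and 38.9%. The members' interval ran from 14.9% to 40.2% in KO1 and from 22.4% to 49.8% in KO2, against 32.5% to 61.1% in the control. Among the 6792 strongest IgG-free peaks of each list, 4 members were listed in KO1 and 8 in KO2, against 9 in control cells, and all genes at 15.6%, 16.3% and 15.8%.

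In the Flag-actin arm 9 members had no IgG-free peak in either KO library and at least 1 in the control (20.9%, against 13.8% of all genes): ARID1A, SMARCB1, SMARCD2, BCL7B, BCL7C, BICRAL, INO80, RUVBL2 and DMAP1. SMARCC1 alone had one in both KO libraries and not in the control (2.33%, against 3.51%). Of the 20 members with an IgG-free control peak 9 had none in either KO library, as did 2772 of the 7799 genes with one. With peaks of any kind 8 members were in the control list alone (18.6%, against 10.7%), and BCL11A was the 1 in both KO lists but not the control (2.33%, against 3.54%). IgG-free peaks were fewer in both KO libraries than in the control at 14 members, against 24.5% of all genes, and more in both at 3 members, ARID1B, SMARCC1 and DPF3, against 4.31%. The whole IgG-free Flag-actin list held 12124 peaks in KO1 and 18481 in KO2, against 25473 for the control. None of the 42 IgG-free control peaks overlapped a peak of KO1 (0%, against 2.63% of such peaks at all places) or of KO2 (0%, against 4.88%). IgG-overlapping control peaks were found again at 17 of 18 places in KO1 (94.4%, against 90.9% of all such peaks) and 15 of 18 in KO2 (83.3%, against 93.8%). KO1 and KO2 shared 1 IgG-free site, in SMARCC1, at chr3:47590011-47590100 in KO1 and chr3:47590031-47590120 in KO2, with percentiles of 24.4 and 43.2. That is 1 of 19 KO1 peaks at members (5.26%, against 5.46% of all IgG-free KO1 peaks) and 1 of 28 KO2 peaks (3.57%, against 3.53%).

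Members with an IgG-free Flag-actin peak in all 3 libraries were ARID1B, DPF3, BICRA, EP400 and TRRAP, none with a place shared between KO and control. EP400 had 1 in KO1 and 3 in KO2, against 5 in control cells, with its highest at percentile 8.46 in KO1 and 41.9 in KO2, against 64.3 in control cells. TRRAP had 2 in KO1 and 2 in KO2, against 3 in control cells, and BICRA 1 and 2, against 1. ARID1B had 3 in KO1 and 2 in KO2, against 1 in control cells, and DPF3 had 3 in KO1 and 3 in KO2, against 1. At both genes the BRG1 counts ran the other way.

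The members whose Flag-actin control peaks ranked highest were chosen for those peaks, so their KO values are given only as a description. PHF10, the PHD finger subunit of PBAF, had none in KO1 and 1 in KO2 at percentile 28.8, against 1 in control cells that was the highest ranking at any member (percentile 72.5). That control peak lay elsewhere, at chr6:169702491-169702910 outside the gene's span, where C6orf120 and WDR27 also lie within 2 kb. DMAP1 had none in KO1 or KO2, against 1 at percentile 70.2 in control cells. BCL7C, a subunit of the actin-related module, had none in KO1 or KO2, against 2 in control cells, the higher at percentile 69.0. SMARCA4 had none in KO1 and 2 in KO2 at percentiles 15.6 and 2.14, against 5 in control cells, spread from 7751 to 57477 bp from a start site with percentiles of 29.9 to 65.6. BCL11B had 2 in KO1 and none in KO2, against 5 in control cells, with percentiles of up to 64.5. ARID1A had none in KO1 or KO2, against 2 in control cells, the higher at percentile 58.3. SMARCB1 had none in KO1 or KO2, against 1 at percentile 57.5, and SMARCD2 none, against 3 with percentiles of up to 54.5. DPF1 had none in KO1 and 1 in KO2 at percentile 14.6, against 3 in control cells, the highest at percentile 50.3. SMARCA2 was the reverse, with 2 in KO1 at percentiles 11.6 and 24.4 and none in KO2 or the control.

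Flag-actin peaks were rare at start sites. None of the 37 members had an IgG-free Flag-actin peak within 1 kb of a start site in KO1 and 4 did in KO2 (BRD9, PHF10, DPF3 and ACTR5), against 2 in control cells (SMARCD2 and BICRAL). All genes with an entry stood at 2.88% in KO1 and 6.29% in KO2, against 10.7% in control cells. The actin-related genes ACTL6A, ACTL6B, ACTR5, ACTR6 and ACTR8 had no IgG-free Flag-actin peak in KO1 or the control, and ACTL6B and ACTR5 had 1 each in KO2, at percentiles 63.9 and 41.4. By group, IgG-free Flag-actin peaks lay at 8 of 30 SWI/SNF genes in KO1 and 12 in KO2, against 14 in control cells. For the 13 genes of the other complexes the counts were 3 and 3 in KO1 and KO2, against 6 in control cells. For peaks of any kind the SWI/SNF share was 8.46 points higher in the control, with an interval from -18.9 to 37.7.

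BRG1 and Flag-actin peaks seldom met, at these genes as over the whole lists. In control cells 2 of the 85 IgG-free BRG1 peaks overlapped an IgG-free Flag-actin peak (2.35%, against 3.83% of such BRG1 peaks at all places), which is 2 of the 42 Flag-actin peaks (4.76%, against 4.97%). At SMARCD2 the BRG1 peak chr17:63841761-63842030 (percentile 39.9) met the Flag-actin peak chr17:63842011-63842410 (percentile 54.5) 436 and 56 bp downstream of a start site. At BICRA the BRG1 peak chr19:47681101-47681480 (percentile 33.9) met the Flag-actin peak chr19:47681231-47681490 (percentile 32.6), 71967 and 72097 bp from a start site. At neither place did a KO list of either antibody have a peak. Across libraries, BRG1 control peaks at SMARCD3, PHF10 and the ACTR5 promoter overlapped peaks of Flag-actin KO2, and 1 SMARCC1 peak of BRG1 KO2 overlapped a peak of Flag-actin KO1.

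Among all genes, longer ones had an IgG-free peak more often in each of the 6 antibody libraries. Of the 13 members of 100 kb or more 4 had an IgG-free BRG1 peak in KO1 and 8 in KO2, against all 13 in the control, while all genes of that length stood at 41.4% in KO1 and 56.7% in KO2, against 80.0% in control cells. Of the 7 members under 20 kb 1 did in KO1 and 1 in KO2, against 3 in control cells, with all genes of that length at 6.22%, 15.7% and 36.5%. Of the 15 members of 20 to 50 kb 6.67% did in KO1 and 33.3% in KO2, against 66.7% in control cells. All genes of that length stood at 12.3%, 26.8% and 55.2%. Of the 8 members of 50 to 100 kb 37.5% did in KO1 and 37.5% in KO2, against 62.5% in control cells. All genes of that length stood at 21.2%, 36.9% and 65.3%. For Flag-actin 8 of the 13 longest members had an IgG-free peak in KO1 and 7 in KO2, against 8 in control cells, and all genes of that length stood at 57.3%, 64.7% and 57.5%. In addition, 26 of the 43 windows overlapped the window of another protein-coding gene, and 13 of the 85 IgG-free BRG1 control peaks had another gene within 2 kb.

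**Figure D5:**
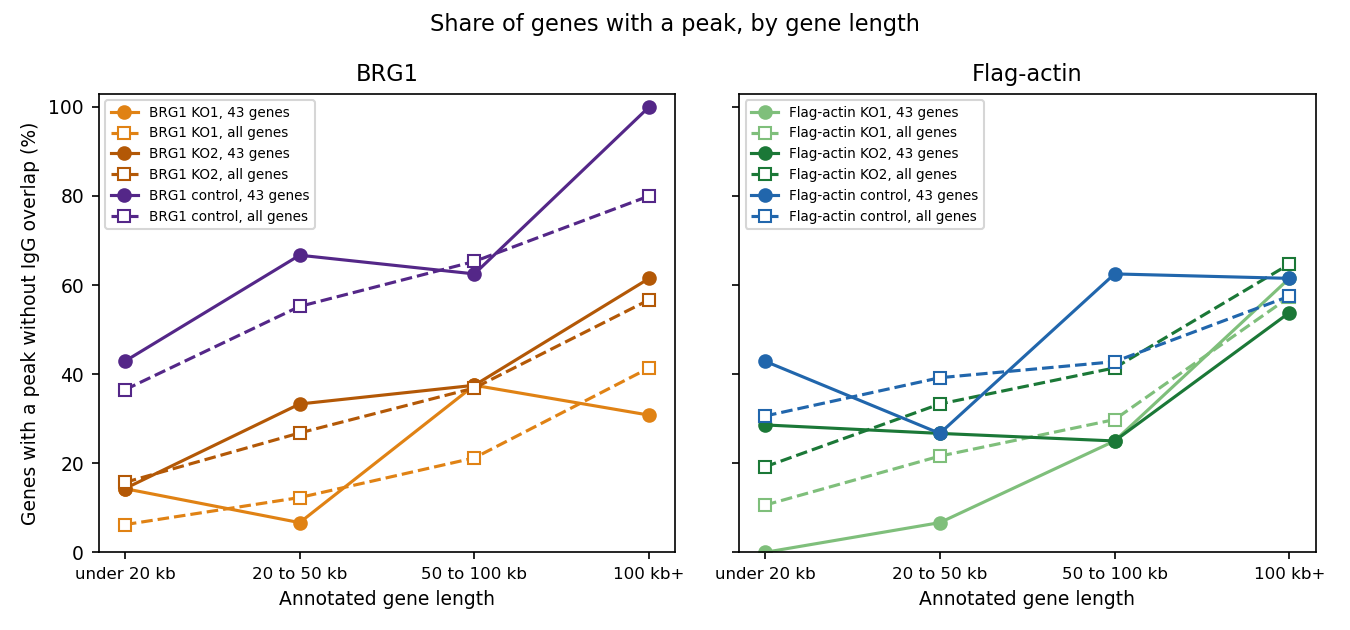
Share of genes with an IgG-free peak (vertical axis, %) by annotated gene length class (horizontal axis) for BRG1 (left) and Flag-actin (right), with the 43 genes as filled circles on solid lines and all protein-coding genes as open squares on dashed lines. The class of 100 kb or more holds 13 members, of which 4 and 8 had a BRG1 peak in KO1 and KO2, against 13 in control cells.

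Other gene lists gave the same order of libraries for BRG1. Of 21 further subunits of INO80, SRCAP and TIP60 with their histone H2A.Z, 1 had an IgG-free BRG1 peak in KO1 and 7 in KO2, against 12 in control cells. Of 31 genes of ISWI, CHD and NuRD remodellers, which contain no actin, 6 did in KO1 and 16 in KO2, against 26 in control cells, and their median length was 75.0 kb. The shares of all genes were 15.7% in KO1 and 28.3% in KO2, against 52.4% in control cells. In the first list 7 genes (33.3%) were in the control and in neither KO library, among them H2AZ1 and H2AZ2, which encode H2A.Z. In the second list 8 of 31 were, among them CHD4 of NuRD. The same held for 25.1% of all genes. For Flag-actin the counts were 3 and 7 in KO1 and KO2, against 6 in control cells, in the first list and 12 and 15, against 18, in the second. Of all genes 23.8% and 33.4% had such a peak in KO1 and KO2, against 38.9% in control cells. Peak lists show where DNA was recovered and not which genes are expressed. IgG-free BRG1 peaks lay at 2 and 4 of 10 colorectal epithelium markers in KO1 and KO2, against 6 in control cells, and at 3 and 5 of 12 markers of other cell types, against 6 in control cells.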

How the data were processed

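Genome occupancy was measured in 8 CUT&RUN libraries of HCT-116 cells, made with a CUT&RUN library kit per the labels' protocols, and each library has 1 deposited peak list. Per the submitters' processing notes the build was hg38, and the tools named, without order or settings, were SEACR, MACS2, bedtools 2.30.0, deepTools, SAMtools, BWA, FastQC 0.12.0 and Trim Galore 0.4.5. The authors deposited for each peak its total and its maximum signal, in the layout of SEACR, per library and without pooling. Neither normalisation nor read depth is given in the sources used here. The maximum signal came in whole multiples of a step (tolerance 0.05 steps), 11.5 and 9.09 for the BRG1 KO libraries against 4.38 for their control, and 9.69 and 8.40 for the Flag-actin KO libraries against 21.5 for theirs. Signal was therefore ranked within a list only.

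Peaks outside chromosomes 1 to 22, X and Y, 2.11% to 4.04% of a list, were left out. Overlap meant at least 1 bp, computed in Python 3.11.15 with numpy 2.4.6, pandas 2.3.3 and, for Wilson intervals, statsmodels 0.14.6. Overlap counts on simulated data were checked with bedtools 2.31.1, and 0 of 2520 pairs differed. Gene spans came from the RefSeq gene table of GRCh38. Start sites came from the RefSeq promoter table of GRCh38.p14, which had 37 members; ARID2, SMARCC1, SMARCC2, ACTL6A, VPS72 and TRRAP had no entry. Peaks were not assigned to exons or introns.

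The genes and lists were chosen with earlier results of these data known. The members given with values in each library were SMARCA4 and SMARCA2, the 10 per antibody whose best IgG-free control peak ranked highest, those with an IgG-free peak in control and both KO libraries, those in both KO libraries only, those where both antibodies met in control cells, and those without a peak. Alternatives were lists without IgG overlap, equal-length lists, the peaks above the median of each list, other windows, wider peaks, maximum signal and leaving out a KO library.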

Additional observations from a re-analysis of the deposited data

Results flagged for a closer look

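At 3 genes the BRG1 lists and the Flag-actin lists moved in opposite directions, with both KO libraries on the same side of the control for each antibody. The values are the mean number of peaks in KO1 and KO2 minus the number in the control. At ARID1B the difference was -7.50 peaks for BRG1 and 1.5 for Flag-actin, and -9 and 1.5 with IgG-free peaks alone. At DPF3 it was -4 for BRG1 and 2 for Flag-actin, the same with all peaks and with IgG-free peaks. At BCL11A it was -2.50 for BRG1 and 1.5 for Flag-actin with all peaks. BCL11A had no IgG-free Flag-actin peak in KO1 or the control, so its pattern rests on an IgG-overlapping peak in KO1. These differences between antibodies were not tested, since each antibody has 1 control library. How many of all protein-coding genes moved in opposite directions was not counted, so the pattern cannot be called particular to the members. Of all genes, 40.1% had fewer IgG-free BRG1 peaks in both KO libraries than in the control. For Flag-actin, 4.31% had more. The number of IgG-free peaks in the whole list was lower in both KO libraries than in the control for both antibodies.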

How the results depend on the processing

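Of 158 values recomputed under other settings, 111 stayed close to the reported value and 47 moved. A count stayed close when it was within 1.5 times the reported count, a difference of shares when it lay within the reported interval, and a median percentile when it moved by less than the SD between the KO libraries. The cause of a move was not tested unless the setting itself keeps fewer peaks. The mean number of members with a BRG1 peak in the KO libraries stayed below the control under every setting tried, with a reported KO mean of 21.5 (SD 0.707, n = 2) against 34. Without peaks overlapping either IgG list, or that of the same arm, the KO mean was 13, among the peaks above the median signal of each list 10, without peaks of up to 50 bp 13.5, and within 1 kb of a gene end 5, against 20 in control cells. In equal-length IgG-free lists, chosen after seeing the data, it was 10.5 against 15. BRG1 peaks over members averaged 39.5 in KO against 109 in control cells. They averaged 15.5 without IgG overlap (either list or the same arm), 17.5 without narrow peaks, 15.5 above the median signal against 46, and 7 near gene ends against 31, and equal-length lists gave 32.5 against 42, with 20.5 members against 25.

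For Flag-actin the KO mean of members was 13 without IgG overlap, 14 above the median signal, 4.50 near gene ends against 8 in control cells, and 6 against 9 in equal-length IgG-free lists. Peaks averaged 23.5 without overlap with either IgG list, 27.5 with the same arm's list, 28.5 without narrow peaks, 20.5 above the median signal against 28, and 6 near gene ends against 11, and equal-length lists gave 30.5 against 34, with 17 members against 23. Members in the control alone numbered 5 with 10 kb flanks, against 8. Members in both KO lists alone, reported as 1 per antibody, numbered 4 for BRG1 in equal-length lists and 0 near gene ends and with 10 kb flanks, and for Flag-actin 3 above the median signal and 0 near gene ends.

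With 1 KO library left out, members in the remaining KO list and not in the control ranged from 1 to 3 for BRG1 and from 2 to 6 for Flag-actin. Members in the control and not in the remaining KO list ranged from 13 to 16 for BRG1 and from 11 to 12 for Flag-actin, and with IgG-free peaks from 17 to 25 and from 11 to 13. Ranking by maximum signal moved the median percentile of each member's strongest peak to 53.5 in BRG1 KO1, against 63.9 in control cells, and to 61.0 and 53.8 in Flag-actin KO1 and KO2, against 62.9 in control cells. The total-signal medians were 44.3 in BRG1 KO1, against 70.0, and 63.2 and 62.5 in Flag-actin KO1 and KO2, against 64.5. No paired analysis was possible because each antibody has 1 control library, whose title carries no KO number. The difference between the shares of SWI/SNF genes and of the other complexes' genes in control cells ranged from -10.5 to 7.44 percentage points for BRG1, so its sign changed, and from 0.513 to 14.9 for Flag-actin, and its interval held 0 under every setting tried. Read depth is not known, so a peak that is not listed may lie under a list's threshold.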
